A study of Sus scrofa with 8 samples.

Results

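The CTGF, CYR61 and TGF-beta axis of pig heart was examined through 10 genes chosen by name: the matricellular genes CTGF, CYR61 and NOV, the ligands TGFB1, TGFB2 and TGFB3, the receptors TGFBR1 and TGFBR2, the inhibitor SMAD7 and the latency protein LTBP1. They were chosen with earlier results of these data known, so counts of members set beside the share of all genes are descriptions and not tests of the set. The names matched 11 rows of the 18975 genes in the deposited expression table, because TGFBR1 is listed on 2 rows, and 10 rows (1 for each gene) passed the filter for testing. RNA came from the hearts of 6-month-old male pigs, and the study asked which genes differ with breed and altitude. The groups were Tibetan pigs in the highland at 3000 m (TH), Tibetan pigs in the lowland at 100 m (TL), Yorkshire pigs in the highland (YH) and Yorkshire pigs in the lowland (YL). Each group had 2 libraries, and each library was a pool of RNA from 4 pigs, so that differences between single animals cannot be seen and p-values measure only the spread between pools.

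TGF-beta is secreted bound to a latency peptide and to LTBP proteins that tether it to the extracellular matrix. Once released, it binds TGFBR2, which recruits and phosphorylates TGFBR1, and the signal passes to SMAD proteins that enter the nucleus. SMAD7 is induced by the pathway and shuts down the receptor. CTGF (CCN2), CYR61 (CCN1) and NOV (CCN3) belong to the CCN family of secreted matrix-associated proteins. CTGF is a well-known target of TGF-beta in fibrosis, and CTGF and CYR61 are also standard targets of the YAP/TAZ and TEAD transcription factors and are induced rapidly by serum and by stretch.

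Levels are given as FPKM, the fragments mapped to a gene scaled by its exon length and by the depth of the library, which allows genes to be compared per length. The 8 libraries held 15686819 to 26722610 reads on genes. Cardiomyocyte transcripts were abundant in each, with TNNT2 (cardiac troponin T) at 2800 to 7640 FPKM and TNNI3 at 4600 to 16800 FPKM. ACTC1 (cardiac actin), the next by level, had 2040 to 5020 FPKM in the Tibetan and 838 to 1460 in the Yorkshire libraries, without overlap. The 8 ventricular markers in the table, led by TNNI3, MYL3 and IRX3, summed to 7910 in YL2 and 12800 to 24400 elsewhere. TNNI3, which is also in the cardiomyocyte list, gave most of this sum (16800 of 24400 in TH1 and 4600 of 7910 in YL2). The sum is therefore not a measure of ventricular tissue. Library YL2 stood apart: the summed FPKM of 14 kidney markers, among them SLC5A2, FXYD2 and UMOD, was 8960 there and at most 17.5 in the other libraries, and its cardiomyocyte marker sum was the lowest, 10500 against 15500 or more. Library TH1 also differed from TH2, with a summed FPKM of 10 cardiac fibroblast markers (led by DCN, MFAP5 and COL1A1) of 296 against 737. TH1, where CTGF and CYR61 were highest, also had the largest summed FPKM over all genes (8559104 against 1563940 to 4017846) and the lowest number of genes reaching 1 FPKM, 10233, the other libraries having at least 10661. In such bulk samples, fewer cells of a type and less RNA per cell cannot be told apart.

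CTGF (ENSSSCG00000004192, chromosome 1, 35133812 to 35137139, Sscrofa10.2) was the member with the highest mean level. Its FPKM, given for replicates 1 and 2 of each pair of libraries in turn, was 192 and 176 in the TH pair, 81.2 and 151 in the TL pair, 29.7 and 34.7 in the YH pair and 28.1 and 42.2 in the YL pair. All 4 Tibetan libraries lay above all 4 Yorkshire libraries, and the TH libraries also lay above the TL libraries. Group means were 184 ± 11.4 FPKM for TH, 116 ± 49.6 for TL, 32.2 ± 3.53 for YH and 35.1 ± 9.99 for YL (SD, n = 2). The mean in TH was thus 5.71 times that in YH, and the mean in TL was 3.31 times that in YL. Between 1127 and 9037 reads per library stood behind these values.

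CYR61 (ENSSSCG00000006940, chromosome 4, 142924365 to 142927632) followed CTGF closely in level. Its FPKM was 178 and 170 in the TH pair, 95.9 and 65.3 in the TL pair, 30.6 and 43.9 in the YH pair and 28.1 and 23.0 in the YL pair. The 4 groups did not overlap and fell in the order TH, TL, YH, YL. The mean in TH was 4.68 times that in YH and 2.16 times that in TL, while the mean in TL was 3.15 times that in YL. The altitude ratio was 1.46 in Yorkshire pigs, with YH2 well above YH1.

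The FPKM of CTGF divided by that of CYR61 lay between 0.789 and 1.07 in 6 of the 8 libraries. It was 2.32 in TL2 and 1.84 in YL2, the libraries in which CTGF was the higher and CYR61 the lower of its lowland pair. The highland pairs were closer together, with 1.07 and 1.03 in TH and 0.969 and 0.789 in YH.

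NOV (ENSSSCG00000006002, chromosome 4, 20522555 to 20533993), the CCN family member often described as opposing CTGF in fibrosis, was listed at far lower levels. Its FPKM was 2.0 and 3.06 in the TH pair, 6.39 and 4.24 in the TL pair, 1.64 and 1.85 in the YH pair and 1.94 and 1.71 in the YL pair. The highest values were in TL, so that the order of the Tibetan groups was opposite to that of CTGF and CYR61. The mean in TL was 2.90 times that in YL and 2.1 times that in TH. The other CCN genes WISP1, WISP2 and WISP3 and their synonyms gave 4 rows in the table, none of which reached 1 FPKM in 2 libraries.

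**Figure D1:**
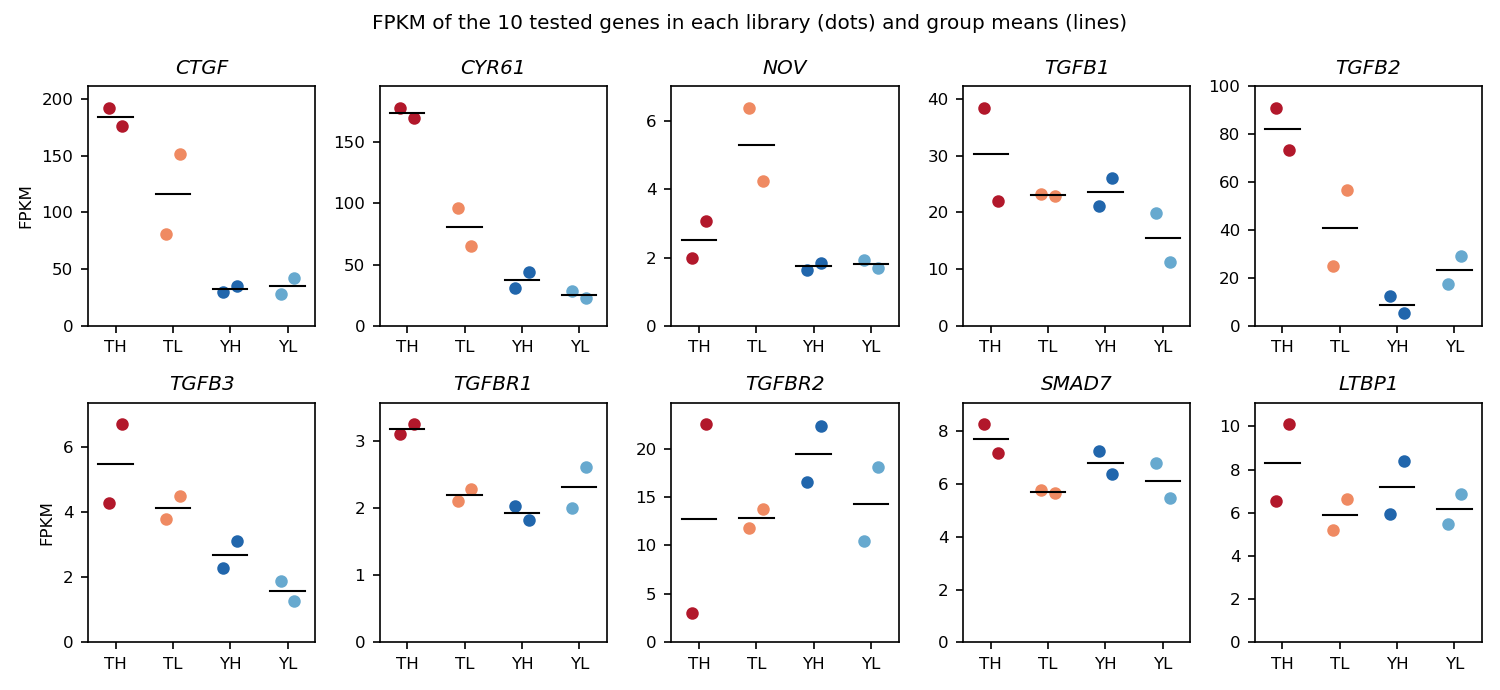
FPKM (linear axis, starting at 0) of the 10 genes, one panel per gene, with a dot for each library and a line at the group mean of 2 libraries. CTGF and CYR61 have all 4 Tibetan libraries above all 4 Yorkshire libraries, NOV is highest in TL, and TGFBR2 has 1 low library, TH1, at 3.02 FPKM.

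The ligand TGFB1 (ENSSSCG00000003017, chromosome 6, 45127026 to 45139176), the isoform most linked to fibrosis, had an FPKM of 38.4 and 22.0 in the TH pair, 23.3 and 22.9 in the TL pair, 21.1 and 26.0 in the YH pair and 19.8 and 11.2 in the YL pair. Its extremes were TH1 and YL2, and the other 6 libraries lay between 19.8 and 26.0 FPKM. With all libraries, TGFB1 did not reach an unadjusted p under 0.05 in limma in any comparison. Its log2 fold change from YL to TL was 0.60 with all libraries and 0.21 without YL2, and reached 0.98 under other alternatives. From YH to TH it was 0.30 with all libraries, -0.09 without TH1 and 0.69 without TH2.

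TGFB3 (ENSSSCG00000002385, chromosome 7, 105178632 to 105206982), the third TGF-beta isoform, was low but ordered by breed. Its FPKM was 4.28 and 6.69 in the TH pair, 3.78 and 4.48 in the TL pair, 2.27 and 3.11 in the YH pair and 1.87 and 1.27 in the YL pair. All Tibetan libraries were above all Yorkshire libraries, while TH and TL overlapped. The mean in TH was 2.04 times that in YH, and the mean in TL was 2.63 times that in YL.

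TGFB2 (ENSSSCG00000010816, chromosome 10, 10354222 to 10478457), an isoform with a role in heart valve formation, gave different pictures in FPKM and in reads. Its FPKM was 91.0 and 73.2 in the TH pair, 24.9 and 56.8 in the TL pair, 12.3 and 5.34 in the YH pair and 17.5 and 29.0 in the YL pair. In FPKM, TH was above all other groups and YH was below them, with a ratio of 9.32 between the TH and YH means. The deposited read values (reads divided by 1 factor per library, here called scaled reads) were 446 and 249 in the TH pair, 117 and 112 in the TL pair, 164 and 114 in the YH pair and 170 and 116 in the YL pair. In scaled reads TH was still the highest group, but TL, YH and YL lay together between 112 and 170.

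The ratio of TH to YH for TGFB2 was therefore 9.32 in FPKM and 2.50 in scaled reads. For YH to YL it was 0.379 in FPKM and 0.974 in scaled reads, and for TL to YL it was 1.76 in FPKM and 0.80 in scaled reads with overlapping groups in both. For TH to TL it was 2.01 in FPKM and 3.04 in scaled reads. Scaled reads per FPKM of a gene reflect the transcript length used to compute FPKM, and for TGFB2 they ranged from 1.97 in TL2 to 21.4 in YH2, a 10.9-fold range. Among 8293 genes with at least 50 reads in every library the median range was 1.23-fold and the 99th percentile was 2.01-fold, and only 2 genes, TGFB2 included, had a range as large. The other members had ranges from 1.06-fold (SMAD7) to 1.87-fold (TGFBR1). The cause of the range for TGFB2 was not tested.

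**Figure D2:**
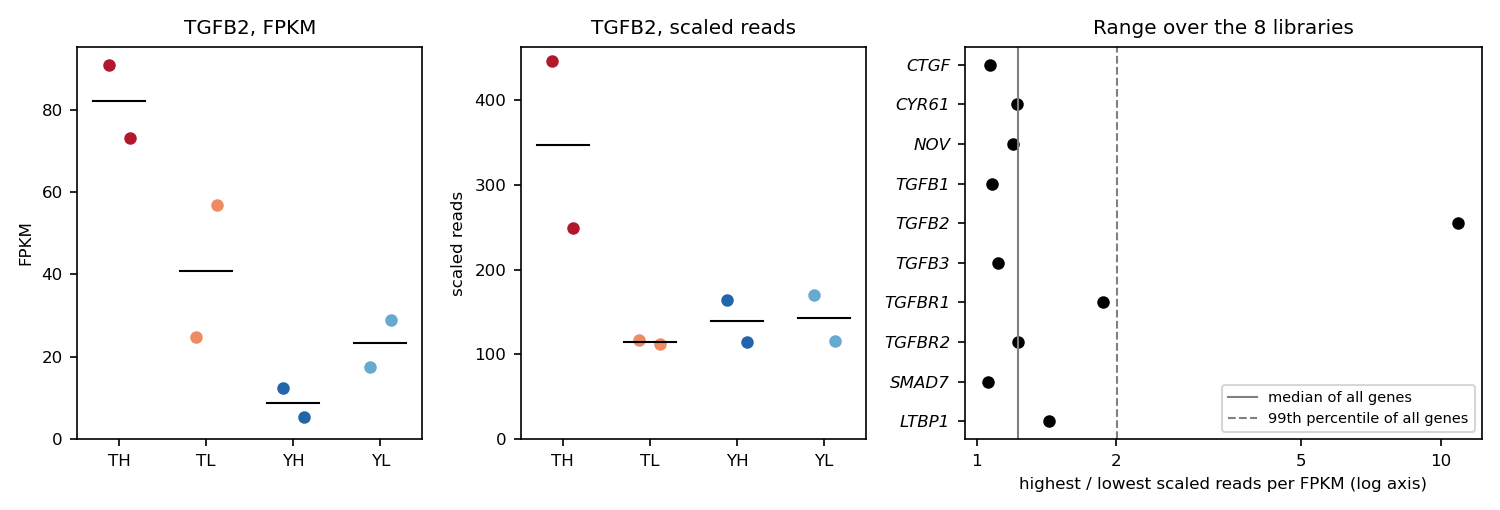
Left and middle, TGFB2 in FPKM and in scaled reads, with a dot for each library and a line at each group mean (linear axes from 0). Right, highest divided by lowest scaled reads per FPKM over the 8 libraries for each member (log axis), with the median and the 99th percentile of 8293 genes: TGFB2 stands at 10.9-fold and no other member exceeds 1.87-fold.

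The receptor TGFBR1 (ENSSSCG00000005382, chromosome 1, 269089547 to 269149052) had an FPKM of 3.10 and 3.25 in the TH pair, 2.11 and 2.29 in the TL pair, 2.03 and 1.83 in the YH pair and 2.0 and 2.62 in the YL pair. In FPKM TH was above every other library, and the other 3 groups lay close together. In scaled reads TH was again highest, but YH (169 and 102) lay below TL (181 and 188) and YL (177 and 225). The log2 fold change of TGFBR1 from YH to TH was 0.51 in FPKM (limma) and 1.09 in reads (edgeR). A second row of the same name (ENSSSCG00000023995), on an unplaced scaffold, held 1 to 4 reads per library and was not tested, and reads shared by the 2 rows may have been split. The receptor TGFBR2 (ENSSSCG00000011226, chromosome 13, 18707604 to 18710521) had an FPKM of 3.02 and 22.5 in the TH pair, 11.8 and 13.8 in the TL pair, 16.5 and 22.3 in the YH pair and 10.5 and 18.1 in the YL pair. TH1 alone stood low, with 56 reads against 180 to 680 in the others. The log2 fold change of TGFBR2 from YH to TH was -1.05 (SE 0.75) with TH1 and 0.22 without it.

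SMAD7 (ENSSSCG00000004507, chromosome 1, 108087683 to 108117509) had an FPKM of 8.25 and 7.17 in the TH pair, 5.75 and 5.66 in the TL pair, 7.25 and 6.36 in the YH pair and 6.78 and 5.46 in the YL pair. LTBP1 (ENSSSCG00000008510, chromosome 3, 113229600 to 113504003) had 6.53 and 10.1 in the TH pair, 5.21 and 6.62 in the TL pair, 5.94 and 8.42 in the YH pair and 5.50 and 6.86 in the YL pair. SMAD7 ranged from 5.46 to 8.25 FPKM and LTBP1 from 5.21 to 10.1. In scaled reads LTBP1 was higher in TH than in YH and TL without overlap. Neither gene reached an unadjusted p under 0.05 in any comparison.

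In order of mean FPKM over the 8 libraries, CTGF (91.8) and CYR61 (79.4) came first, followed by TGFB2 (38.7), TGFB1 (23.1), TGFBR2 (14.8), LTBP1 (6.89), SMAD7 (6.59), TGFB3 (3.47), NOV (2.85) and TGFBR1 (2.40). Several neighbours in this order did not differ beyond their spread: the libraries of CTGF and CYR61 overlapped or met in every group, LTBP1 and SMAD7 lay within the same range, and the place of TGFB2 rests on its FPKM alone.

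Differences were tested with limma on log2(FPKM + 1) across the 11913 genes that reached 1 FPKM in 2 or more libraries. A gene was called when its Benjamini-Hochberg adjusted p was under 0.01 and its log2 fold change exceeded 1 in size. Under this rule 0 of the 10 members were called in each of 7 comparisons. The share of all genes called was as small: 0.0336% in TH to YH, 0.00839% in TL to YL, 0.0504% in TH to TL, 0% in YH to YL, 0.0504% for breed averaged over altitude, 0.0336% for altitude averaged over breed and 0.0336% for the interaction of breed and altitude. With edgeR's quasi-likelihood test on reads, 0 of all genes were called at the same thresholds. An exact permutation test of 2 against 2 libraries cannot give a two-sided p below 0.333.

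The lowest adjusted p values of the members were those for breed. Averaged over altitude, CTGF was higher in Tibetan pigs by 2.07 on the log2 scale (SE 0.25, limma adjusted p = 0.0332) and CYR61 by 1.91 (SE 0.20, limma adjusted p = 0.0232), and both were higher in 4 of 4 Tibetan libraries. They were the 2 members that a looser limit of 0.05 on the adjusted p let through, as it did 0.453% of all genes. This was not stable: the limma adjusted p of CYR61 was 0.0521 with the replicate block, and that of CTGF was 0.0627 with no filter and 0.0517 with median-ratio scaling. Leaving out any TH, TL or YH library put both above 0.05, with 0.0989 for CTGF and 0.0764 for CYR61 in limma without TH1. On reads, edgeR placed the same 2 members under an adjusted p of 0.05 (0.031 for CTGF and 0.038 for CYR61), with 0.372% of all genes. DESeq2 on the same reads called CTGF, CYR61 and TGFB3 at an adjusted p under 0.01, with 2.09% of all genes. CTGF, CYR61, NOV and TGFB3 had all 4 Tibetan libraries above all 4 Yorkshire libraries, a pattern without overlap that 8.03% of all genes showed in one direction or the other.

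Between the breeds in the highland, the log2 fold change from YH to TH was 2.48 for CTGF (SE 0.35, limma adjusted p = 0.0592) and 2.22 for CYR61 (SE 0.29, limma adjusted p = 0.0487). CYR61 was the member under an adjusted p of 0.05, a rule that 0.26% of all genes met. It lost this under most alternatives, with a limma adjusted p of 0.0591 at a pseudocount of 0.1, 0.0708 with no filter, 0.0514 with median-ratio scaling, 0.0952 with the replicate block and 0.244 without TH1, and an edgeR adjusted p of 0.0931. Without YL2 CTGF, CYR61 and TGFB2 passed, with limma adjusted p values of 0.0367, 0.0367 and 0.0481, beside 1.32% of all genes. At an unadjusted p under 0.05 there were 5 of 10 members, all higher in TH, against 16.2% of all genes: CTGF, CYR61, TGFB2, TGFB3 (0.80, SE 0.27) and TGFBR1 (0.51, SE 0.20). Without TH1 the count was 4, TGFBR1 being lost, against 9.17% of all genes. TGFB2 had 3.17 (SE 0.51, limma adjusted p = 0.0761) in FPKM and 1.30 (edgeR adjusted p = 0.228) in reads. DESeq2 called CTGF and CYR61, with 1.66% of all genes. The groups did not overlap for 6 members, against 52.5% of all genes, so the lack of overlap alone sets nothing apart here.

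Between the breeds in the lowland, the log2 fold change from YL to TL was 1.66 for CTGF (SE 0.35, limma adjusted p = 0.253), 1.6 for CYR61 (SE 0.29, limma adjusted p = 0.187), 1.14 for NOV (SE 0.26, limma adjusted p = 0.269) and 1.0 for TGFB3 (SE 0.27, limma adjusted p = 0.333). These 4 members had an unadjusted p under 0.05, against 8.94% of all genes, and all were higher in TL. Without YL2 the values were 1.95 for CTGF, 1.46 for CYR61, 1.08 for NOV and 0.84 for TGFB3. DESeq2 called CTGF and CYR61, with 1.72% of all genes. The groups did not overlap for 5 members (TGFB1 beside these 4), against 41.5% of all genes. Adding 1 FPKM lowers the fold change of low genes, and in reads NOV had 1.51 and TGFB3 had 1.38 (edgeR).

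**Figure D3:**
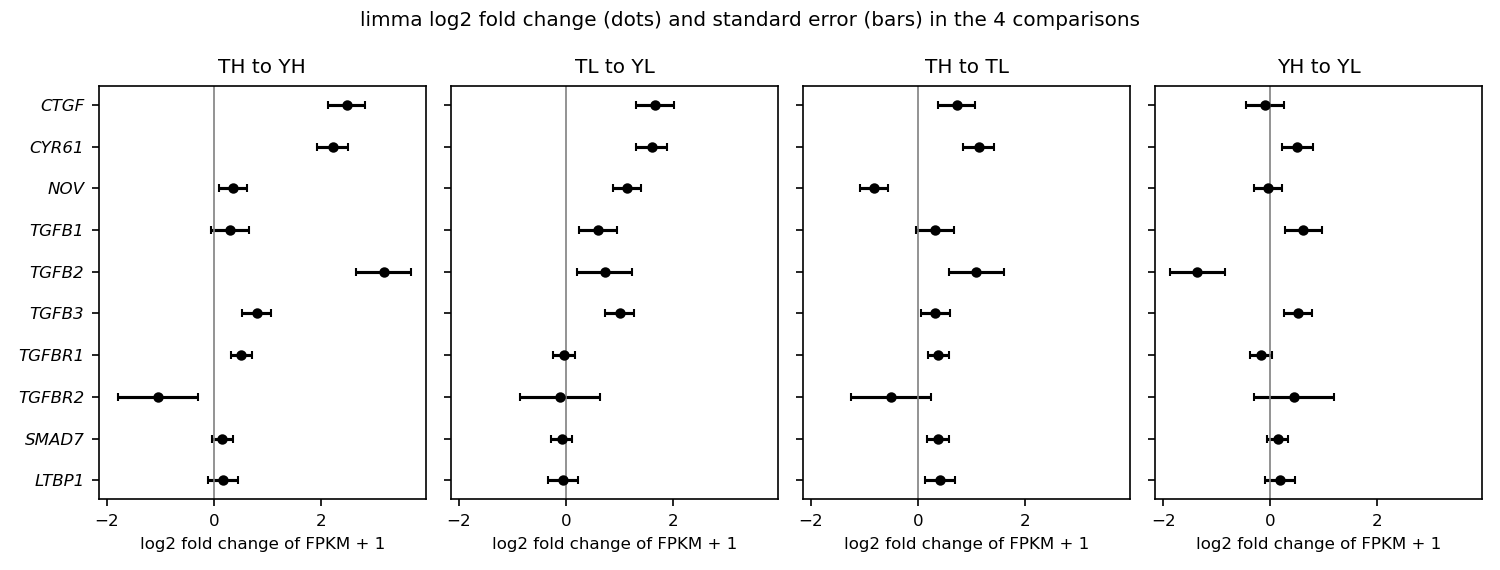
limma log2 fold change of FPKM + 1 (dots) with its standard error (bars) for the 10 members in the 4 comparisons, a positive value being higher in the first group named. CTGF and CYR61 are at 1.6 to 2.48 in both breed comparisons, and TGFB2 runs from 3.17 in TH to YH down to -1.36 in YH to YL.

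In Tibetan pigs, the highland and lowland groups had the lowest p values for CYR61 and NOV, whose differences had opposite signs. CYR61 had a log2 fold change from TL to TH of 1.13 (SE 0.29, limma adjusted p = 0.255), and NOV one of -0.83 (SE 0.26, limma adjusted p = 0.314). These were 2 of 10 members at an unadjusted p under 0.05, against 11.3% of all genes, and NOV did not reach it without TH1, where 8.34% of all genes did. CTGF had 0.72 (SE 0.35, limma adjusted p = 0.49), with TL1 and TL2 far apart. In reads TGFB2 had 1.58 (edgeR adjusted p = 0.295), against 1.09 in FPKM. The groups did not overlap for 6 members (CTGF, CYR61, SMAD7, TGFB2 and TGFBR1 higher in TH, NOV lower), against 48.5% of all genes.

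In Yorkshire pigs, CTGF had a log2 fold change from YL to YH of -0.10 and CYR61 one of 0.51 (limma adjusted p = 0.784). TGFB2 was the 1 member at an unadjusted p under 0.05, against 5.97% of all genes, with -1.36 (SE 0.51, limma adjusted p = 0.784) in FPKM. It had -0.03 in reads (edgeR), and without YL2 it had -1.01 in FPKM. It no longer reached that threshold without YL2, without TH1 or in reads, where 5.45%, 9.12% and 9.7% of all genes did. The groups did not overlap for CYR61, TGFB1 and TGFB3 (higher in YH) and for TGFB2 (lower), against 36.3% of all genes.

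Altitude averaged over breed gave 0.82 for CYR61 (SE 0.20, limma adjusted p = 0.434) and -0.44 for NOV, the members at an unadjusted p under 0.05 beside 7.22% of all genes. NOV was lost without YL2 and without TH1: CYR61 alone remained without YL2 (9.37% of all genes), CYR61 and TGFB3 reached the threshold without TH1 (9.51%), and by edgeR 4 members did (CYR61, NOV, TGFB2 and TGFB3, beside 8.19%). For breed averaged over altitude 5 members reached it (CTGF, CYR61, NOV, TGFB2 and TGFB3), beside 13.5%. The test of whether the altitude difference itself differed between breeds gave 0.82 for CTGF (limma adjusted p = 0.564), 0.62 for CYR61 and 2.45 for TGFB2 (SE 0.72, limma adjusted p = 0.355). TGFB2 was the member under an unadjusted p of 0.05, beside 10.9% of all genes, and edgeR added TGFBR1, beside 11.2%. A different altitude response of CTGF or CYR61 in the 2 breeds was thus not detected with these libraries.

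**Figure D4:**
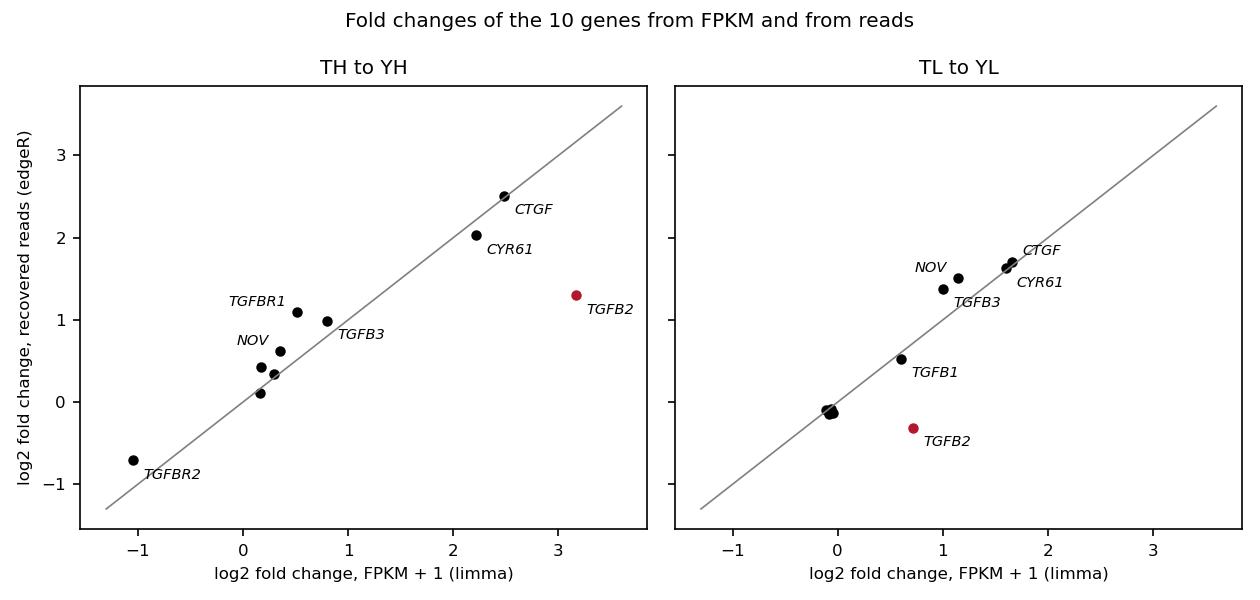
Log2 fold change of each member from FPKM + 1 (limma, x axis) against that from recovered reads (edgeR, y axis) in TH to YH and TL to YL, with the line of equal values. CTGF and CYR61 lie near the line in both panels, and TGFB2 (red) lies below it, at 3.17 and 1.30 in TH to YH.

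Lists of related genes were counted beside the members at an unadjusted p under 0.05. Like the members, they were chosen with earlier results of these data known, so their counts are descriptions too. Of 20 tested TGF-beta target genes, 9 were higher in Tibetan pigs at an unadjusted p under 0.05 and 0 lower in the breed comparison averaged over altitude (ACTA2, COL1A1, COL1A2, FN1, JUNB, POSTN, TAGLN, TIMP1 and VCAN), with a list median of 0.72 on the log2 scale against -0.01 over all genes. Of all genes, 13.5% passed that rule in either direction. In TH to YH there were 6 of 20 (median 0.56) against 16.2% of all genes and in TL to YL 7 of 20 (median 1.0) against 8.94%, again with 0 lower. None passed the call, and the counts in TL to YL and averaged over altitude include library YL2. COL1A1, a main fibrillar collagen, had 43.3 and 192 FPKM in the TH pair, 187 and 124 in the TL pair, 45.4 and 80.3 in the YH pair and 34.6 and 47.8 in the YL pair. COL3A1 had 18.2 FPKM in TH1 and 172 in TH2, against 36.8 to 68.1 in the Yorkshire libraries. COL3A1 was thus lower in TH1 than in any Yorkshire library, and COL1A1 in TH1 lay within the Yorkshire range. COL1A2 in TH1, at 32.7 FPKM, was above the Yorkshire range of 15.4 to 17.9. CTGF and CYR61 were at their highest in TH1. TIMP3, an inhibitor of matrix proteases, had 1.70 FPKM in TH1 and 26.2 to 37.8 in the others, and ID2 had 43.0 FPKM in YL2 and 5.15 to 14.6 in the others.

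CTGF and CYR61 are also the standard members of YAP/TAZ target lists. Of 16 other YAP/TAZ target genes tested, 0 had an unadjusted p under 0.05 in TH to YH and 1 (NT5E, a cell surface nucleotidase) in TL to YL, against 16.2% and 8.94% of all genes, and the medians were 0.09 and 0.06. In TH to YH the count was 0 by edgeR and 1 without TH1, against 14.2% and 9.17% of all genes. In TL to YL it was 3 without YL2, of which 1 was lower, and 4 without TH1, against 9.72% and 11.4%, so the count in the lowland comparison depended on the libraries used. ANKRD1, a cardiac stress-responsive target, was the most abundant, with 2780 to 2930 FPKM in the TH pair, 885 to 1870 in the TL pair, 2260 to 3510 in the YH pair and 961 to 3140 in the YL pair. From YH to TH its log2 fold change was 0.02 (SE 0.64), that of RBMS3 1.05 and that of AXL -0.85. From YL to TL NT5E had 0.73, and IGFBP3, with 7.84 FPKM in YL2 and no more than 1.31 in the rest, had -1.04. AJUBA had 17.4 to 21.5 FPKM in TH and 11.3 to 11.5 in TL. Of 14 tested regulators of the pathway, 1 was higher in each breed comparison at an unadjusted p under 0.05, TEAD3 in TH to YH and TEAD2 in TL to YL, against 16.2% and 8.94% of all genes. YAP1 itself had 11.5 to 17.4 FPKM across the libraries. TEAD4 had 12 to 16.8 FPKM in TH and 2.42 to 8.18 elsewhere, MOB1A had 0.996 in TH1 and 10.4 in TH2, and STK4 had 7.64 in YL2 and at most 2.51 elsewhere.

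Of the latency and activation list, 1 of 10 tested genes was higher in TH than YH at an unadjusted p under 0.05, and in TL to YL 2 were higher (EMILIN1 and MMP2) and 1 lower (ITGAV). All genes passed at 16.2% and 8.94%, so the share in TH to YH was below that of all genes. The gene in both was EMILIN1, a matrix protein that restrains processing of the TGF-beta precursor, with 13.8 and 15.5 FPKM in the TH pair, 8.53 and 8.04 in the TL pair, 4.03 and 5.41 in the YH pair and 3.32 and 5.80 in the YL pair. Its log2 fold change from YH to TH was 1.46 (SE 0.27, limma adjusted p = 0.0974). The integrin subunit ITGAV, which takes part in activating TGF-beta, stood at 43.0 and 59.3 FPKM in the TH pair and 17.2 and 16.8 in the TL pair. MMP2, a gelatinase, had a log2 fold change from YL to TL of 1.33 (SE 0.43, limma adjusted p = 0.417), with 12 FPKM in YL2. The integrins ITGB6 and ITGB8 had -0.68 (SE 0.41) and 0.06 (SE 0.54) from YH to TH.

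Of 9 tested inhibitors of TGF-beta and BMP signalling, CHRD, SMAD6 and TGIF1 were higher and PPM1A lower in TH than YH at an unadjusted p under 0.05, against 16.2% of all genes, and DCN was higher in TL than YL, against 8.94%. CHRD (chordin) had 4.16 to 6.46 FPKM in TH and 0.974 to 1.93 elsewhere, and PPM1A, a SMAD phosphatase, had 6.47 and 15.5 in TH against 31.7 and 40.7 in YH. DCN (decorin), which binds TGF-beta in the matrix, had 72.4 and 148 FPKM in the TH pair, 225 to 266 in TL and 103 to 179 in the Yorkshire libraries, and BAMBI, a decoy receptor, had 14.2 in YL2 and at most 1.87 elsewhere. Among 9 other receptors, BMPR1B was lower in both breed comparisons, with 0.0622 to 0.624 FPKM in the Tibetan libraries and 1.52 to 2.73 in the Yorkshire libraries. It passed the filter on low values through the Yorkshire libraries alone, so its difference of -1.18 (SE 0.15) averaged over altitude is given as a description. The counts for the list at an unadjusted p under 0.05 were 1 of 9 in TH to YH, against 16.2% of all genes, and 2 of 9 in TL to YL, against 8.94%. BMPR1B is the 1 in TH to YH and 1 of the 2 in TL to YL, so these counts are a description as well. The other in TL to YL was ENG, the endothelial co-receptor, higher by 0.58 (SE 0.23, limma adjusted p = 0.513), with 71.6 and 65.6 FPKM in the TL pair and 52.8 and 39.1 in the YL pair. Elsewhere in the list, ACVRL1 had 7.67 to 17.5, ACVR1 had 3.04 in TH1 and 5.91 to 10.8 elsewhere, and ACVR2A had 1.82 to 4.10.

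Of 6 tested SMAD transducers, SMAD1 and SMAD9, which relay BMP signals, were higher in TH than YH at an unadjusted p under 0.05, by 0.68 (SE 0.24) and 0.98 (SE 0.28), against 16.2% of all genes, and 0 of 6 reached it in TL to YL. SMAD3, which relays TGF-beta signals, had 1.88 to 4.06 FPKM and a log2 fold change of -0.38 (SE 0.27), and the shared partner SMAD4 had 10.5 to 16.3 FPKM and -0.02. Of 7 other ligands tested, BMP4 was higher in TH than YH (1.13, SE 0.38, limma adjusted p = 0.233) and INHA higher in TL than YL (0.99, SE 0.39, limma adjusted p = 0.521) at an unadjusted p under 0.05, which 16.2% and 8.94% of all genes reached. BMP6 stayed between 7.60 and 11.5 FPKM, and MSTN (myostatin) lay between 0.296 and 3.79.

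A list of immediate early genes, which respond within minutes to stimulation, differed between the breeds in the same direction as CTGF and CYR61. Of 20 names 16 were in the table and 14 were tested. All 14 were higher in Tibetan pigs at an unadjusted p under 0.05 in the averaged breed comparison, with a list median of 1.68, against 13.5% of all genes. In TH to YH there were 10 of 14 (median 1.76) against 16.2% of all genes, and in TL to YL 11 of 14 (median 1.5) against 8.94%, and in each 0 were lower. Each of these counts includes EGR2, with 1.06 to 3.13 FPKM in the Tibetan and 0.194 to 0.69 in the Yorkshire libraries. EGR2 passed the filter through the Tibetan libraries alone, so its place in the counts is only a description. FOS was called, with a log2 breed difference of 3.30 (SE 0.24, limma adjusted p = 0.00552) and 42.0 to 85.5 FPKM in Tibetan against 3.4 to 5.98 in Yorkshire libraries. The averaged breed count was 13 without YL2, 13 without TH1 and 13 by edgeR, against 16.7%, 11.8% and 13.7% of all genes. The summed FPKM of the list, led by DUSP1, BTG2 and NR4A1, was 726 to 1100 in the Tibetan and 156 to 279 in the Yorkshire libraries, and ZFP36 was under 0.1 FPKM throughout. The part of this list in the difference of CTGF and CYR61 was not tested.

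Summed markers of cell types and chambers varied as well. The 10 cardiac fibroblast markers summed to 296 and 737 FPKM in the TH pair, 809 and 688 in the TL pair, 456 and 548 in the YH pair and 381 and 281 in the YL pair, so the sums of the breeds overlapped. Within the list, 3 of 10 genes, named after their values were seen, had all Tibetan above all Yorkshire libraries, as CTGF had, against 8.03% of all genes without overlap in either direction. The most abundant of the list, DCN, MFAP5, COL1A1 and DPT, overlapped between the breeds. The 3 were LUM (25.2 to 59.7 against 13.1 to 21.0 FPKM), COL1A2 (32.7 to 59.8 against 15.4 to 17.9) and PDGFRB (10.3 to 15.8 against 4.91 to 9.96). Of 12 atrial markers 9 were detected, led by MYL7, NPPA and KCNJ3, and their sum was 6650 and 5420 in the TH pair, 1530 and 2570 in the TL pair, 647 and 1070 in the YH pair and 2650 and 439 in the YL pair. The sum was thus highest in TH, the group in which CTGF, CYR61 and TGFB2 were highest, but nearly all of it came from MYL7 and NPPA. Other genes of the list, named after their values were seen, were mixed: SLN followed the sum, with 56.5 and 16.3 FPKM in the TH pair against 0.812 to 3.52 elsewhere, whereas TBX5 had 9.14 and 8.39 FPKM in the TH pair against 15.3 and 17.1 in the TL pair, and MYL4 was highest in TL2, at 21.4. The 8 endothelial markers, led by PECAM1, EMCN and VWF, summed to 105 to 184 FPKM. PECAM1 had 71.4 to 96.8 in the Tibetan and 35.7 to 65.6 in the Yorkshire libraries, without overlap, as CTGF and CYR61 had, whereas EMCN (6.72 against 13.8 to 26.4) and VWF (1.07 against 6.42 to 25.9) were lowest in TH1. The 7 smooth muscle markers summed to 9500 and 6110 FPKM in the TH pair and 1030 to 3650 in the other libraries, nearly all of it DES, which cardiomyocytes also express. The next genes by level were TAGLN and CNN1, and TAGLN had 131 to 146 FPKM in the TH pair, 75.9 to 98.4 in the TL pair, 60.8 to 77.0 in the YH pair and 40.4 to 42.3 in the YL pair. CNN1 had 89.5 to 132 FPKM in the TH pair and 10.9 to 61.7 elsewhere. MYH11, the defining contractile gene, named after its values were seen, was instead lowest in TH1, at 0.388 FPKM against 1.88 to 4.87. The 8 macrophage markers, led by C1QC, C1QA and AIF1, summed to 42.8 and 60.4 in the TH pair and 70.9 to 120 elsewhere, with CD163 under 0.1 FPKM. The low TH sums came from C1QA (4.49 and 13.1 against 22.9 to 45.5) and C1QC (6.17 and 20.4 against 22.9 to 53.3). Other genes of the list were mixed: AIF1 had 16.8 FPKM in TH1 and 7.34 in TH2 against 9.33 to 17.0 elsewhere, and CD68, named after its values were seen, had 5.39 and 5.95 against 2.18 to 6.43. CSF1R, also named after its values were seen, leaned the way of C1QA and C1QC, with 1.44 and 2.74 against 2.67 to 6.06. The 7 blood markers, led by HBB, HBA and AHSP, summed to 1230 to 3100 in the Tibetan and 527 to 1060 in the Yorkshire libraries, without overlap, with the platelet genes PPBP and PF4 under 0.1 FPKM. The part of these lists in the members' differences was not tested.

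**Figure D5:**
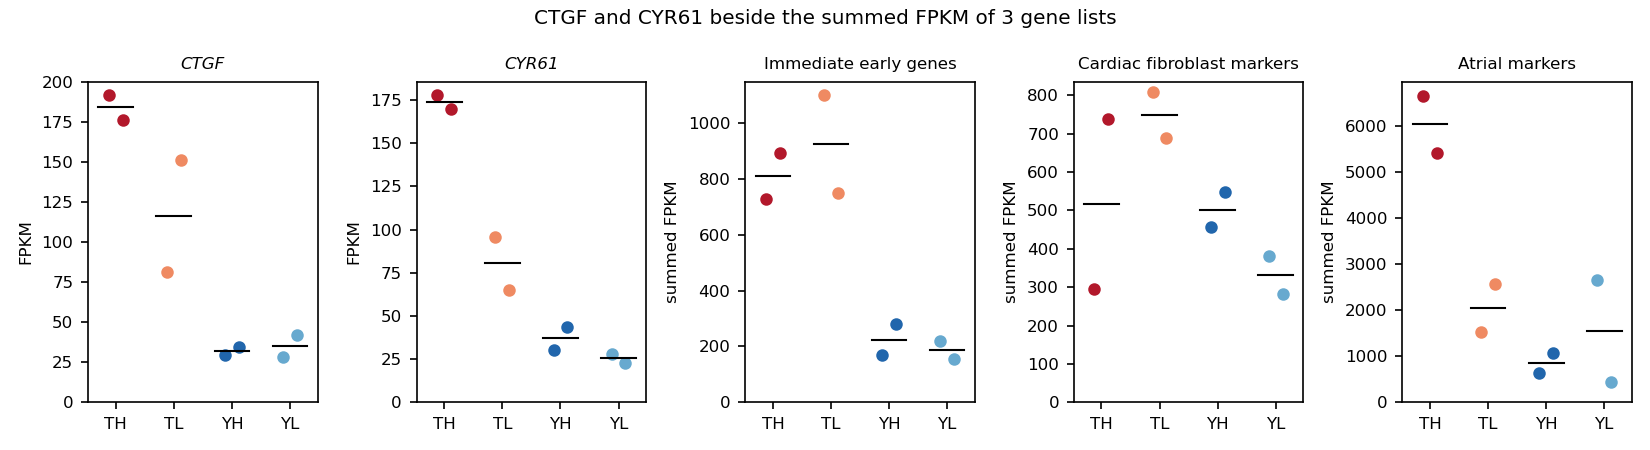
FPKM of CTGF and CYR61, and summed FPKM of 3 gene lists, with a dot for each library and a line at each group mean (linear axes from 0). The immediate early sum is 726 to 1100 in Tibetan and 156 to 279 in Yorkshire libraries, while the fibroblast sum overlaps between breeds and the atrial sum is highest in TH.

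The genes whose log2(FPKM + 1) followed the members most closely over the 8 libraries were sought among 6500 genes with a mean of at least 5 FPKM, as a description without a test. For CTGF they were MUM1L1 (Pearson r = 0.960), TNKS1BP1 (0.952), FOS (0.951), PCOLCE (0.950) and PRKCDBP (0.944). For CYR61 they were VIM (0.985), TUBA1B (0.985), C1QTNF2 (0.975), PCOLCE (0.975) and TUBB6 (0.975). VIM, the intermediate filament of mesenchymal cells, had 324 and 337 FPKM in the TH pair, 206 and 192 in the TL pair, 92.0 and 131 in the YH pair and 89.4 and 97.9 in the YL pair. PCOLCE, which enhances processing of procollagen, was near both members and had 66.7 and 54.8 FPKM in TH and 22.3 and 23.7 in YL. For TGFB2 the closest were PDXK (0.923), PLCB3 (0.914), DKK3 (0.912), PPIH (0.907) and ENSSSCG00000000543 (0.902), which were matched to its FPKM and not to its reads. The 8 points fall into 4 groups and come from the same libraries for every gene.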

How the data were processed

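RNA-seq libraries of pig heart (8, with 2 per group) were analysed from the deposited table. According to the methods and the labels, the authors aligned 100 bp paired reads to Sscrofa10.2 with TopHat2 2.0.9 (Bowtie 0.12.5), computed FPKM with Cufflinks and compared groups with DESeq 1.10.1. The table holds, per library, FPKM values as deposited and a second deposited column, a read signal equal to gene counts divided by 1 factor per library. Whole read counts were recovered from the deposited signal by its step (99.8% of low values were whole within 0.1). The deposited table gives no other depth than these reads, 15686819 to 26722610 on genes. Descriptions of YL1 and YL2 name another group's file, and both were taken as YL by title.

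FPKM were tested with limma 3.58.1 (trend) on log2(FPKM + 1) over genes reaching 1 FPKM in 2 or more libraries, in 1 fit of 8 libraries with 1 term per group. Alternatives were a pseudocount of 0.1, no filter, median-ratio scaling, a replicate block, the 4 libraries compared, looser thresholds, edgeR 4.0.16 (quasi-likelihood) and DESeq2 1.42.0 on recovered reads (13695 genes), and each library left out. On data simulated for TH to YH, limma (11913 genes) called 12% of genes changed by 1.5 and 87% of those changed by 3.0 on the log2 scale. It made 1 false call. On simulated reads (13486 genes), edgeR called 15% and 100% of such genes with 1 false call. DESeq2 called 27% and 99% of them with 11 false calls. The members and lists were chosen with earlier results of these data known. Each member was named, and of each list the genes with the largest rise and fall in the breed comparisons, the 2 with the highest mean and any called. Of marker lists the 3 genes with the highest mean were named. FPKM also depends on the transcript length assigned in each library, and scaled reads per FPKM were therefore compared between libraries.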

Additional observations from a re-analysis of the deposited data

Results flagged for a closer look

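TGFB2 was singled out because its altitude difference ran in opposite directions in the 2 breeds. In FPKM both TH libraries (91.0 and 73.2) were above both TL libraries (24.9 and 56.8), and both YH libraries (12.3 and 5.34) were below both YL libraries (17.5 and 29.0). The difference between the 2 altitude differences was 2.45 on the log2 scale (SE 0.72, limma adjusted p = 0.355 over all genes), so it did not pass the correction. In reads the same term was 1.61 (edgeR adjusted p = 0.406), and the YH and YL libraries overlapped.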

How the results depend on the processing

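The count of members called was 0 in every comparison with limma at an adjusted p under 0.01, and it changed with the rule or the tool. At an adjusted p under 0.05 it was 1 in TH to YH and 2 for breed. At an unadjusted p under 0.01, with a log2 fold change over 1, it was 3 in TH to YH, 4 in TL to YL, 1 in TH to TL and 3 for breed, beside 4.06%, 2.03%, 2.57% and 1.91% of all genes. With DESeq2 it was 2 in TH to YH, 2 in TL to YL and 3 for breed, where DESeq2 called 74 to 286 genes over the 7 comparisons and edgeR 0. At an unadjusted p under 0.05 edgeR had 1940 genes in TH to YH and 1686 in TL to YL. Leaving out each library in turn gave 0 to 1 members for breed, the 1 being CYR61 (1.98, limma adjusted p = 0.00635) without YL1, a fit in which YL rests on YL2 alone and is assumed to vary like the other groups, and in which limma called 227 genes. Of 292 alternative values of the 20 member fold changes with an unadjusted p under 0.05 in limma, 0 changed sign. This tally does not measure stability, because the 20 were picked by their p in these data and many alternatives cannot move them. CTGF in TH to YH, for example, stayed at 2.48 with no filter, with the replicate block and with a TL or YL library left out. TGFB2 in YH to YL kept its sign while going from -1.36 to -0.03 (edgeR). Among the other member fold changes the sign was not fixed: TGFB2 ran from -0.32 to 1.30 in TL to YL and from -0.42 to 0.78 for altitude, TGFBR2 from -2.33 to 0.22 and TGFB1 from -0.09 to 0.69 in TH to YH. Median-ratio scaling moved the median of all genes in TH to YH from -0.03 to -0.13, and the share of genes higher in TH from 47.5% to 40.0%. The replicate numbers did not pair the libraries (correlations of replicate differences between groups from -0.08 to 0.12), and with the replicate block 0 members were called. With alternatives chosen after seeing the data, the members at an unadjusted p under 0.05 in TH to TL went from 2 to 1 without TH1 (8.34% of all genes), and in YH to YL from 1 to 0 without YL2 (5.45%), without TH1 (9.12%) or with edgeR (9.7%). For altitude it went from 2 to 1 without YL2 (9.37%) and to 4 with edgeR (8.19%), and for the interaction from 1 to 2 with edgeR (11.2%). With groups of 2 pools, differences near 1.5 on the log2 scale were mostly missed in simulated data.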
